A study of Mus musculus with 64 samples.

Results

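The Ly6 family surface proteins described here were Ly6m, Ly6g6c, Ly6a, Ly6c1, Ly6d and Ly6e, 6 genes of 19503 genes named on the arrays, of which 5 were measured. No probeset carried the name Ly6a (the mouse stem cell antigen Sca-1), so that gene was not analysed here. The members were chosen by the measured fall of Ly6m and Ly6g6c on a high-fat diet in these same arrays, with other Ly6 genes set beside them, so every diet difference of a member below is a description and carries no test. Proximal colon was taken from male mice of 32 inbred strains, 30 BXD strains and their parents C57BL/6J and DBA/2J, at 29 weeks of age. The HFD group ate a high-fat diet (HFD, 60.3% of calories from fat and 21.4% from carbohydrate) from week 8, for 21 weeks, and the CD group stayed on a chow diet (CD, 18% from fat and 58% from carbohydrate). Each of the 64 arrays held RNA pooled from approximately 5 mice of 1 strain on 1 diet, so there were 32 arrays per diet and 1 array per strain and diet, and the spread given below is a spread over strains and not over animals.

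Ly6 proteins are small and rich in cysteine. They share the fold of the urokinase receptor and of CD59, and most are held on the outer face of the cell membrane by a lipid anchor. Mouse Ly6 genes lie mainly in a cluster on chromosome 15, where Ly6m, Ly6c1, Ly6d and Ly6e are found, and a smaller group that includes Ly6g6c lies in the class III region of the major histocompatibility complex (MHC) on chromosome 17. Several of them are used as markers of blood cell types, and Ly6e and Ly6c1 are known to respond to interferon.

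The values were log2 intensities, in which a difference of 1 is a doubling, and each array contributed 1 value per gene. Array medians lay between 6.58 and 6.77 in HFD and between 6.54 and 6.74 in CD. The labelled tissue carried its defining markers in every array: Car1 of colonocytes lay between 18.6 and 19.9 in HFD and between 18.4 and 19.9 in CD, and Epcam of epithelium between 16.4 and 17.5 in HFD and between 16.6 and 17.4 in CD. The 11 measured genes of squamous epithelium, a tissue that carries Ly6d, averaged 4.80 to 5.44 over the arrays in HFD and 4.87 to 5.44 in CD, and the basal keratin Krt5 stayed between 3.28 and 4.55 in HFD and between 3.34 and 4.45 in CD. The small intestine defensin Defa24 varied widely, from 4.47 to 19.6 in HFD and from 4.21 to 19 in CD. As rich in it, 4 arrays were set apart: BXD48a in CD, and BXD39, BXD49 and BXD69 in HFD. Of these, BXD39 had the lowest Ly6m in HFD, and BXD49 had more Ly6m in HFD than in CD. Without these 4 arrays the diet difference was -0.98 for Ly6m and -1.24 for Ly6g6c. Some pairs of arrays also stood apart. The HFD array labelled C57BL/6J and the CD array labelled DBA/2J were the most alike of all arrays (r = 0.986). In 10 other genes the 64 values fell into 2 sets, with a gap of at least 1 and at least 8 arrays on each side, and the HFD and CD arrays of a strain lay on different sides in 10 of these genes for DBA/2J, 6 for C57BL/6J, 5 for BXD89, 3 for BXD87 and 2 for BXD90, against 0 in each of the 27 other strains. The likeness over all genes did not single out these strains as a set: the deviations of the HFD and CD arrays from the diet means had r = -0.024 within BXD89 and -0.028 within BXD90, and -0.039 within BXD51. The CD array of DBA/2J had r = 0.503 with the HFD array of C57BL/6J, against 0.0175 with its own HFD array. The CD array of BXD48a, not a pair in doubt, had 0.5 with the HFD array of BXD49, against 0.0987 with its own. These 5 pairs (C57BL/6J, DBA/2J, BXD87, BXD89 and BXD90) are called the pairs in doubt, they include 3 of the 4 strains with more Ly6m in HFD, and results were also computed over the 27 other strains.

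The reference table of promoters (RefSeq, GRCm38.p6) held 2 of the 6 members, with 1 window for Ly6g6c and 2 overlapping windows, at 2 starts, for Ly6c1. The Ly6g6c window and the first Ly6c1 window are shown because Ly6g6c varied most between strains among the members and Ly6c1 varied with Ly6e. The Ly6g6c window is chr17:35067075-35067374 on the plus strand and the Ly6c1 window shown is chr15:75048788-75049087 on the minus strand, each with 250 bases before and 50 after the start of the gene, written 5′ to 3′. Capitals mark the letters of the TATA box searched for, TATAAA on either strand.
Ly6g6c: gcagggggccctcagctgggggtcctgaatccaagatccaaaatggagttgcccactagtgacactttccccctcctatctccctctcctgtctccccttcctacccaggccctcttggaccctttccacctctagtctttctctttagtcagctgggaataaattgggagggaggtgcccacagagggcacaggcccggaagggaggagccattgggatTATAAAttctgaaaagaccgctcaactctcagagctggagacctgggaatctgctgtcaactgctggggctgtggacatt
Ly6c1: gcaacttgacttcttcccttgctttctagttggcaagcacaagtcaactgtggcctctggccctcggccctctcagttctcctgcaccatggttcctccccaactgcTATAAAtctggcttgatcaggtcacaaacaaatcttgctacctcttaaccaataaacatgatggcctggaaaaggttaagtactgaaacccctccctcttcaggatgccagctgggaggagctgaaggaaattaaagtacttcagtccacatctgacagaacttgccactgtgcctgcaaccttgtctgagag

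The TATAAA of Ly6g6c began 30 bases before the start of the gene, and that of Ly6c1 began 143 bases before the start of its shown window. The second Ly6c1 window, chr15:75048614-75048913, held no TATAAA. These letters were present in 13.6% of all 32851 promoter windows of 300 bases. CCAAT, searched on both strands, was found at 2 places in the Ly6g6c window and at 1 in the Ly6c1 window shown, and it was present in 37.4% of all windows. The interferon-linked letters TTCNNNGAA, present in 8.3% of all windows, were not found in any of the 3 windows on either strand. A match is a run of letters and not a shown site.

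Ly6m was lower in HFD in most strains. Its level had a lowest value of 7.83 (BXD39), a median of 10.53 and a highest value of 13.06 (BXD89) in HFD, against 6.41 (BXD89), 11.72 and 13.61 (BXD73) in CD. The mean was 10.46 ± 1.20 in HFD and 11.50 ± 1.33 in CD (SD, n = 32 each), a mean difference of -1.04 on the log2 scale, or 2.05-fold lower, with an SD of 1.95 between strains. The groups overlapped widely, since all 32 HFD values lay within the CD range. Within strains, the HFD array was lower in 28 of 32. In bulk tissue, fewer cells of a type and less RNA per cell cannot be told apart.

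**Figure D1:**
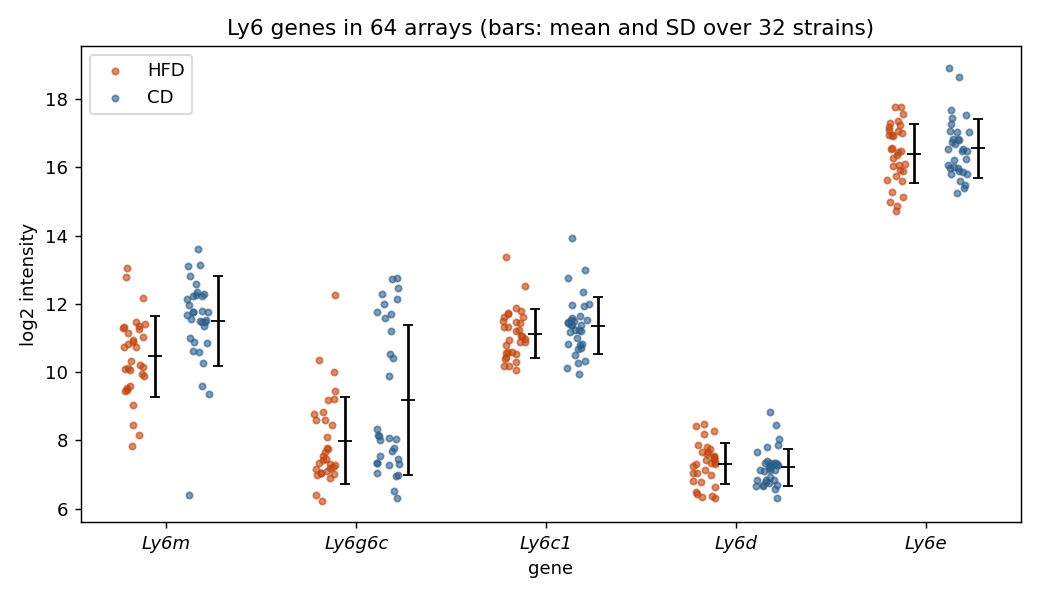
Log2 intensity (vertical axis) of the 5 measured Ly6 genes, with HFD points left of CD points. Each point is 1 array, and bars are the mean and SD over 32 strains. Ly6m and Ly6g6c had lower means in HFD (differences of -1.04 and -1.19), and the CD points of Ly6g6c fell on both sides of an empty stretch.

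The 4 strains with more Ly6m in HFD were BXD89, C57BL/6J, BXD87 and BXD49, and the first 3 are pairs in doubt. BXD89 had 13.06 in HFD and 6.41 in CD, the highest HFD value and the lowest CD value of all strains. C57BL/6J had 12.78 in HFD and 9.61 in CD, while BXD87 and BXD49 were higher in HFD by only 0.46 and 0.44. The largest fall was in DBA/2J, with 8.45 in HFD and 12.59 in CD, also a pair in doubt. Among the strains outside those pairs, the falls were largest in BXD73 (10.05 in HFD and 13.61 in CD), BXD84 (10.08 and 13.15) and BXD43 (9.05 and 11.75), and they were smallest in BXD45 (11.27 and 11.46). Over the 27 other strains, Ly6m averaged 10.28 ± 0.97 in HFD and 11.73 ± 0.89 in CD (SD, n = 27 each), and the difference of -1.46 had an SD of 0.96. It was lower in 26 of those 27 strains, and 19 of their CD values lay above every HFD value.

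Ly6g6c, the member in the MHC region, was also lower in HFD, in 25 of 32 strains. Its level had a lowest value of 6.24 (BXD43), a median of 7.50 and a highest value of 12.25 (BXD87) in HFD, against 6.33 (BXD39), 8.09 and 12.76 (BXD1) in CD. The mean was 7.99 ± 1.28 in HFD and 9.18 ± 2.19 in CD (SD, n = 32 each), a mean difference of -1.19 on the log2 scale, or 2.28-fold lower, with an SD of 1.66. Without the pairs in doubt the mean was 7.75 ± 0.97 in HFD and 9.30 ± 2.22 in CD (SD, n = 27 each), the difference was -1.55 with an SD of 1.44, and it was lower in 23 of 27 strains.

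**Figure D2:**
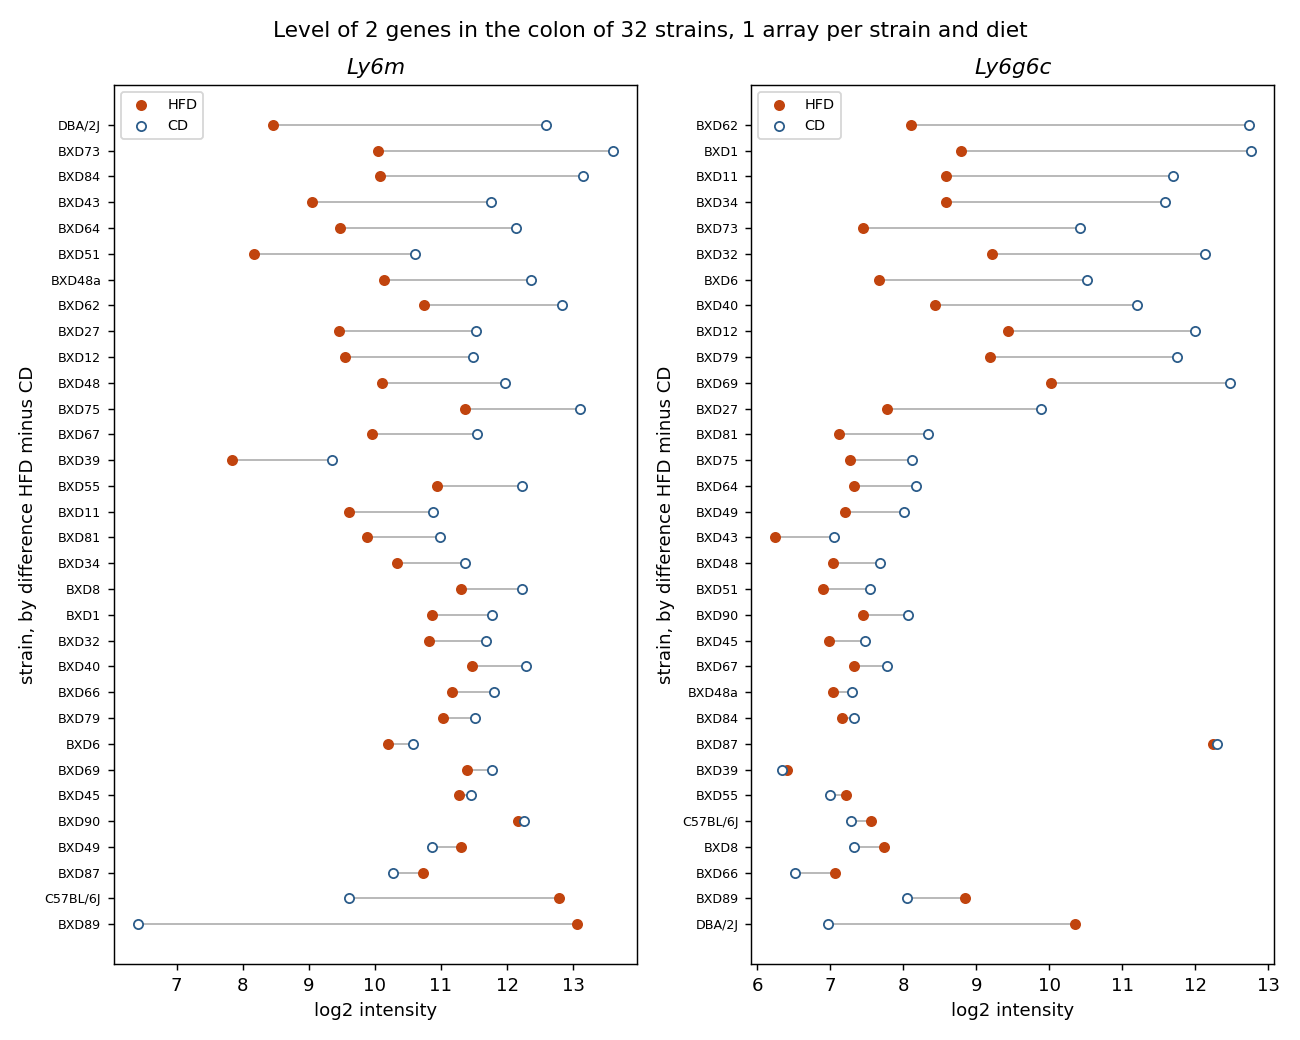
Log2 intensity (horizontal axis) of Ly6m and Ly6g6c in each of 32 strains (rows), ordered by the difference HFD minus CD. Filled points are HFD arrays, open points are CD arrays, and a line joins the 2 arrays of a strain. The Ly6m differences ran without a break through most strains, whereas the 12 largest falls of Ly6g6c stand apart from the rest at -4.65 to -2.11.

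In CD the strains took 2 levels of Ly6g6c. Between BXD81 at 8.34 and BXD27 at 9.88 there was an empty stretch of 1.55, with 13 strains above it (BXD1, BXD6, BXD11, BXD12, BXD27, BXD32, BXD34, BXD40, BXD62, BXD69, BXD73, BXD79 and BXD87) and 19 below it. The 12 largest falls were all in strains above this gap, from -4.65 in BXD62 (8.10 in HFD and 12.74 in CD) to -2.11 in BXD27 (7.78 in HFD and 9.88 in CD), and the next was -1.22 in BXD81. A difference contains the CD value itself, so the 2 are not independent, and no test was set on this order. The exception above the gap was BXD87, a pair in doubt, with 12.25 in HFD and 12.30 in CD. Below the gap the differences ran from -1.22 to 0.55 outside the pairs in doubt, while DBA/2J, a pair in doubt, was higher in HFD (10.35) than in CD (6.97).

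In HFD the strains above the gap were still mostly the higher ones. Of the 13 strains with the highest HFD level, 11 were above the gap in CD. HFD levels had a median of 8.59 (range 7.44 to 12.25) in the strains above the gap and 7.20 (6.24 to 10.35) in those below, so the ranges overlapped. Over all 32 strains HFD and CD levels had r = 0.656, and 0.884 without the pairs in doubt. Because the CD values fell into 2 sets, these values take in the distance between the sets and are a description. The pairs in doubt were picked where the HFD and CD arrays of a strain disagreed in other genes. Btnl6 of the MHC region, described below (r = -0.806 with Ly6g6c), met the rule for those genes. The 0.884 is therefore not independent of that choice. Only 0.733% of genes had a higher r than 0.656 over the 32 strains. The 2 levels were then compared within each set by a permutation test (10 relations with the members were computed in this way). Above the gap the HFD and CD levels gave Pearson's r = 0.571 (n = 13, permutation p = 0.0381, adjusted p = 0.16) and Spearman's rho = 0.665 (permutation p = 0.0155), with r = 0.415 after the 2 strains farthest from the median were left out. Below it r was 0.092 (n = 19, permutation p = 0.716, adjusted p = 0.963) and rho was 0.246 (permutation p = 0.311). Without the pairs in doubt these r were 0.689 above the gap (n = 12, permutation adjusted p = 0.138) and 0.478 below it (n = 15, permutation adjusted p = 0.166). None of these relations passed after adjustment.

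The other members had smaller mean differences than Ly6m and Ly6g6c. In all 5 measured members the mean difference over the 32 strains was smaller than the spread between strains. Ly6c1 is known from endothelium and plasma cells. In HFD it had a lowest value of 10.05, a median of 11.06 and a highest value of 13.36 (BXD48a). In CD it had 9.95, 11.37 and 13.94 (C57BL/6J). Its mean was 11.13 ± 0.71 in HFD and 11.36 ± 0.84 in CD (SD, n = 32 each), and it was lower in HFD in 15 strains and higher in 17. Ly6d, known from early B lineage cells and from squamous epithelia, had a lowest value of 6.31, a median of 7.36 and a highest value of 8.49 in HFD, against 6.31, 7.18 and 8.82 in CD. The mean of Ly6d was 7.32 ± 0.60 in HFD and 7.21 ± 0.54 in CD (SD, n = 32 each), and 17 strains were higher in HFD. Ly6e, a widely expressed member that limits the entry of some viruses, had a lowest value of 14.71, a median of 16.47 and a highest value of 17.78 in HFD, against 15.25, 16.50 and 18.92 in CD. Its mean was 16.40 ± 0.86 in HFD and 16.56 ± 0.86 in CD (SD, n = 32 each). The largest single change of Ly6e was in BXD51, with 14.97 in HFD and 18.65 in CD, and the other 31 strains included 19 that were higher in HFD.

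The differences of Ly6m and Ly6g6c did not run in parallel. Both were lower in HFD in 23 strains and both were higher in 2, but their differences had r = 0.113 over the 32 strains, as a description. BXD62 and BXD73 had large falls of both genes. The difference in BXD84 was -3.07 for Ly6m and -0.17 for Ly6g6c, whereas in BXD69 it was -0.37 for Ly6m and -2.45 for Ly6g6c.

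Over all genes, the fit of HFD against CD (limma, adjusted p under 0.05) called 426 of 19503 genes (2.18%), of which 145 were higher (0.743%) and 281 lower (1.44%). With strain as a block it called 687 (3.52%). In these fits 1 of the 5 members (Ly6m) was among the genes called without the block and 2 (Ly6m and Ly6g6c) with it, and since this contrast chose the members nothing is read from these counts. The members had a median log2 difference of -0.24, against 0.002 over all genes.

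The rest of the family was examined in the same fit. Of 41 other Ly6 and urokinase receptor family genes listed, 35 were measured, and 0 of 35 passed the limma test in either direction, with 1 at an unadjusted p under 0.05 and 0 with strain as a block, a share not far from the 2.18% over all genes. Their median log2 difference was -0.008. The 1 gene was Ly6g6e, which lies beside Ly6g6c: it averaged 5.77 ± 0.55 in HFD and 6.04 ± 0.50 in CD (SD, n = 32 each), a difference of -0.27 (SE 0.13, limma adjusted p = 0.32), and was lower in 25 of 32 strains. Its level lay below the array medians. The other differences among the 5 largest in size were 0.37 for Cd177, a neutrophil surface protein, -0.28 for Ly6c2, -0.23 for Plaur, which encodes the urokinase receptor, and 0.19 for Gml, and none of them passed. Lypd8, a secreted family member that keeps flagellated bacteria away from the colon epithelium, averaged 19.1 in both diets (difference -0.07, limma adjusted p = 0.516). Its SD was 0.15 in HFD and 0.12 in CD. The level of Lypd8 lay near the top of the intensities, where Muc2 read 19.9 in every array, so a difference may be missed there.

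In the same fit 0 of the 12 colonocyte, 10 endothelial, 8 B and plasma cell, 10 monocyte, macrophage and neutrophil, 8 fibroblast, 7 T cell, 7 smooth muscle and 11 squamous genes measured passed the limma test, against 2.18% of all genes. With strain as a block, 1 colonocyte gene fell and 1 monocyte, macrophage and neutrophil gene and 2 fibroblast genes rose, against 3.52% of all genes in either direction. Of 7 stem and dividing cell genes, 3 rose in HFD (the proliferation genes Mki67, Top2a and Plk1), against 0.743% of all genes. With the block 4 of these 7 rose, against 271 of all 19503 genes. Of 8 goblet cell genes 1 fell (Spdef, a goblet cell transcription factor), against 1.44% of all genes. Of 10 genes of the small intestine 1 rose (Fabp6, an ileal bile acid binding protein), against 0.743% of all genes. With the block 4 of these 10 rose, against 271 of all 19503 genes. Of 30 interferon response genes, 3 fell in HFD (Irf7, Oas1a and Irgm1) and 27 did not pass, against 1.44% of all genes that fell. With the block 5 of the interferon genes fell, against 416 of all 19503 genes.

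Within a diet, the order of strains is not what chose the members, so it was tested. Ly6c1 and Ly6e varied together over the strains in both diets: Pearson's r was 0.528 in HFD (n = 32, permutation p = 0.00165, adjusted p = 0.0165) and 0.766 in CD (n = 32, permutation p = 2e-05, adjusted p = 0.0004). Spearman's rho was 0.532 in HFD and 0.802 in CD (permutation p = 0.00213 and 1e-05, the second being the smallest that 100000 permutations can give). Without the 2 strains farthest from the median of Ly6c1, r was 0.505 in HFD and 0.76 in CD. Of 20 relations between members (10 pairs in each diet), these 2 passed after adjustment. The relations counted include those of Ly6g6c over all CD strains, none of which passed. Without the pairs in doubt the HFD relation no longer passed (r = 0.47, adjusted p = 0.12). The difference between the diets was not tested.

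**Figure D3:**
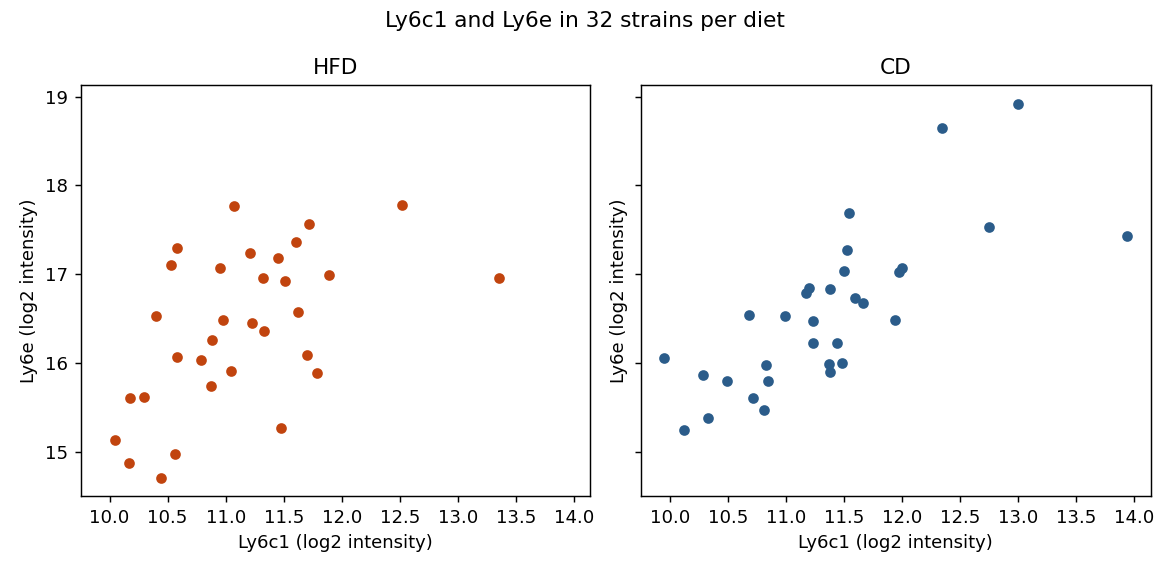
Log2 intensity of Ly6c1 (horizontal axis) and Ly6e (vertical axis) in HFD (left panel) and CD (right panel), with 1 point per strain (32 per panel). Both panels slope upward, with r = 0.528 in HFD and 0.766 in CD.

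No such relation passed for Ly6m and Ly6g6c, the members that were lower in HFD. In HFD their levels had r = 0.156 (n = 32, permutation p = 0.392, adjusted p = 0.667) and rho = 0.238 (permutation p = 0.187), and r was 0.0266 without BXD39 and BXD89 and 0.39 without the pairs in doubt (27 strains, permutation adjusted p = 0.285). In CD, with the strains split at the gap in Ly6g6c, r with Ly6m was -0.0744 above the gap (n = 13, permutation p = 0.811) and -0.0425 below it (n = 19, permutation p = 0.867), with an adjusted p of 0.963 for both.

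Whether a strain kept its place from CD to HFD differed in value between members. Over 32 strains r between HFD and CD levels was -0.19 for Ly6m (permutation p = 0.293, adjusted p = 0.366), with rho 0.0517 (permutation p = 0.777). It was 0.47 without the pairs in doubt (27 strains, adjusted p = 0.0328), and leaving out BXD89 alone gave 0.13, so the value over all strains rested on the pairs in doubt. Those pairs were picked where HFD and CD arrays disagreed in other genes, so the 0.47 is not independent of that choice. For Ly6e r was 0.397 (permutation p = 0.0236, adjusted p = 0.0589) and rho was 0.518 (permutation p = 0.00265, adjusted p = 0.00662), and r was 0.60 (adjusted p = 0.00145) without BXD51 and BXD81. Ly6c1 gave r = 0.344 (permutation p = 0.0542, adjusted p = 0.0904) and rho = 0.257 (permutation p = 0.155), which dropped to r = 0.125 without C57BL/6J and BXD81. Ly6d gave r = 0.136 (permutation p = 0.457) and rho = 0.018 (permutation p = 0.922), with r = -0.0568 without C57BL/6J and BXD12. The median over all genes was 0.135. Ly6g6c, given above as a description, had the highest value of the 5 members (0.656), and the p-values here were adjusted over these 5. Without the pairs in doubt r was 0.30 for Ly6e (adjusted p = 0.222) and 0.21 for Ly6c1 (adjusted p = 0.363).

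Each member was then set against cell type marker lists and an interferon list within each diet, as the mean of standardised values of the list. Of 120 relations (5 members, 12 lists, 2 diets), 6 passed after adjustment, all of them in CD, and 26 had a permutation p under 0.05. Ly6c1 went with the B and plasma cell list in CD (r = 0.695, rho = 0.613, permutation p = 2e-05 and 0.00026, adjusted p = 0.0024, r = 0.639 without the 2 farthest strains), and in HFD r was 0.442 (rho = 0.41, permutation p = 0.0119, adjusted p = 0.117). Ly6d, too, went with this list in CD (r = 0.561, rho = 0.599, permutation p = 0.00108 and 0.00035, adjusted p = 0.0232), and in HFD r was 0.415 (rho = 0.331, permutation p = 0.0171, adjusted p = 0.134). Without the 2 farthest strains, BXD12 and C57BL/6J, the CD value for Ly6d was 0.434 and no longer passed (adjusted p = 0.175). The mean level of its 8 genes lay between 7.56 and 9.65 in HFD and between 7.61 and 9.27 in CD over the arrays, and its part in the levels of Ly6c1 and Ly6d was not tested.

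The list of monocytes, macrophages and neutrophils went with both Ly6e (r = 0.576, rho = 0.657, permutation p = 0.00052 and 0.0001, adjusted p = 0.0208) and Ly6c1 (r = 0.564, rho = 0.553, permutation p = 0.00073 and 0.00108, adjusted p = 0.0219) in CD. In HFD r was 0.283 for Ly6e and 0.277 for Ly6c1 (permutation p = 0.116 and 0.126). Without BXD81 and C57BL/6J the CD value for Ly6c1 was 0.449 and no longer passed (adjusted p = 0.175). Smooth muscle genes also went with Ly6e in CD (r = 0.538, rho = 0.615, permutation p = 0.00116 and 0.00024, adjusted p = 0.0232), with r = 0.664 without BXD51 and BXD81. Without the pairs in doubt, 4 of the 120 relations passed, and those of Ly6d with B and plasma cells (r = 0.48, adjusted p = 0.154), Ly6e with monocytes, macrophages and neutrophils (0.57, adjusted p = 0.0506) and Ly6e with smooth muscle (0.49, adjusted p = 0.154) were not among them. Over the 30 BXD strains 1 relation passed, that of Ly6m with the endothelial list (r = -0.59, permutation adjusted p = 0.0324). That of Ly6c1 with B and plasma cells did not pass there (0.55, permutation adjusted p = 0.0525). No relation with the interferon list passed. Its r with Ly6e was 0.143 in HFD and 0.104 in CD (permutation p = 0.464 and 0.57). With Ly6c1 it was 0.0287 in HFD and 0.189 in CD (permutation p = 0.869 and 0.302). For Ly6c1 in CD rho was 0.372 (permutation p = 0.0365, adjusted p = 0.199). Without BXD81 and C57BL/6J r was 0.424 there (permutation p = 0.0196, not adjusted). Ly6m in CD had r = 0.15, and 0.405 without BXD39 and BXD89 (permutation p = 0.0262, not adjusted). Without the 2 farthest strains r was -0.0561 for Ly6c1 in HFD and 0.0533 for Ly6e in CD.

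Ly6m had the opposite sign with the endothelial list in CD (r = -0.572, rho = -0.479, permutation p = 0.00039 and 0.0059, adjusted p = 0.0208), and in HFD r was -0.333 (permutation p = 0.0618, adjusted p = 0.263). Without BXD39 and BXD89 the CD value was -0.448 and no longer passed (adjusted p = 0.175). Nor did it pass without BXD39, BXD48a, BXD49 and BXD69 (-0.51, permutation adjusted p = 0.0544). It passed without the pairs in doubt (-0.66, permutation adjusted p = 0.0102). Beside colonocyte genes Ly6m had r = 0.402 in HFD (rho = 0.503, permutation p = 0.0231, adjusted p = 0.134) and 0.515 in CD (rho = 0.474, permutation p = 0.00332, adjusted p = 0.0569), neither of which passed. The CD value passed without BXD49 and BXD81 (0.57, permutation adjusted p = 0.0252) and without BXD39, BXD48a, BXD49 and BXD69 (0.57, permutation adjusted p = 0.0381). It did not pass after quantile normalisation (0.45, permutation adjusted p = 0.141) or over the 30 BXD strains (0.49, permutation adjusted p = 0.0957). Without the pairs in doubt it was 0.34 (permutation adjusted p = 0.433). The level of Ly6m also ran against the median of the array, with r = -0.331 in HFD and -0.356 in CD, and Ly6d ran with it in CD (r = 0.579), as descriptions. Ly6c1 (0.41 in HFD and 0.273 in CD) and Ly6e (0.358 and 0.296) ran with it as well. With each array centred on its median, 7 list relations passed. They were the 6 above and that of Ly6m with colonocyte genes in CD (0.53, permutation adjusted p = 0.0353). In that setting the CD value of Ly6m with the endothelial list was -0.54 (permutation adjusted p = 0.0353). That of Ly6d with B and plasma cells was 0.52 (permutation adjusted p = 0.0389). Beyond this scaling the part of the array median was not tested.

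The genes most like each member were sought over all 64 arrays after each gene was centred within its diet, as a description over 32 strains measured on 2 diets. For Ly6g6c, 18 of 19502 genes had r of at least 0.5 in size, and all 18 lay on chromosome 17, which holds 4.94% of the genes. The 5 highest were Clic1, a chloride intracellular channel (r = 0.736), Gm8909 (0.629), Gm7030 (0.618), Ly6g6e (0.606) and Wdr46 (0.583). Clic1 lies 4 places from Ly6g6c in the order of measured genes, with r = 0.505 in HFD and 0.893 in CD, where the value takes in both sets of strains, and Ly6g6e lies 2 places away on the other side. Of the 300 genes within 150 places of Ly6g6c, 17 had r of at least 0.5 in size, 11 positive and 6 negative.

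The negative relations included the gene most unlike Ly6g6c of all, which was picked out after its value was seen. This was Btnl6, a butyrophilin-like gene of the MHC region (r = -0.806 over 64 arrays, -0.749 in HFD and -0.881 in CD), followed by the class I gene H2-K1 (-0.747, with -0.627 in HFD and -0.881 in CD). Without the pairs in doubt these were -0.844 and -0.804, and Clic1 was 0.78. The Btnl6 values themselves fell into 2 sets over the 64 arrays, up to 8.78 and from 10.81. Btnl6 thus met the rule that marked the pairs in doubt, and the values without those pairs are not independent of it. As background, BXD strains carry long chromosome blocks from C57BL/6J or DBA/2J, in which neighbouring genes share their parental origin. The genotype of the strains was not analysed here.

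**Figure D4:**
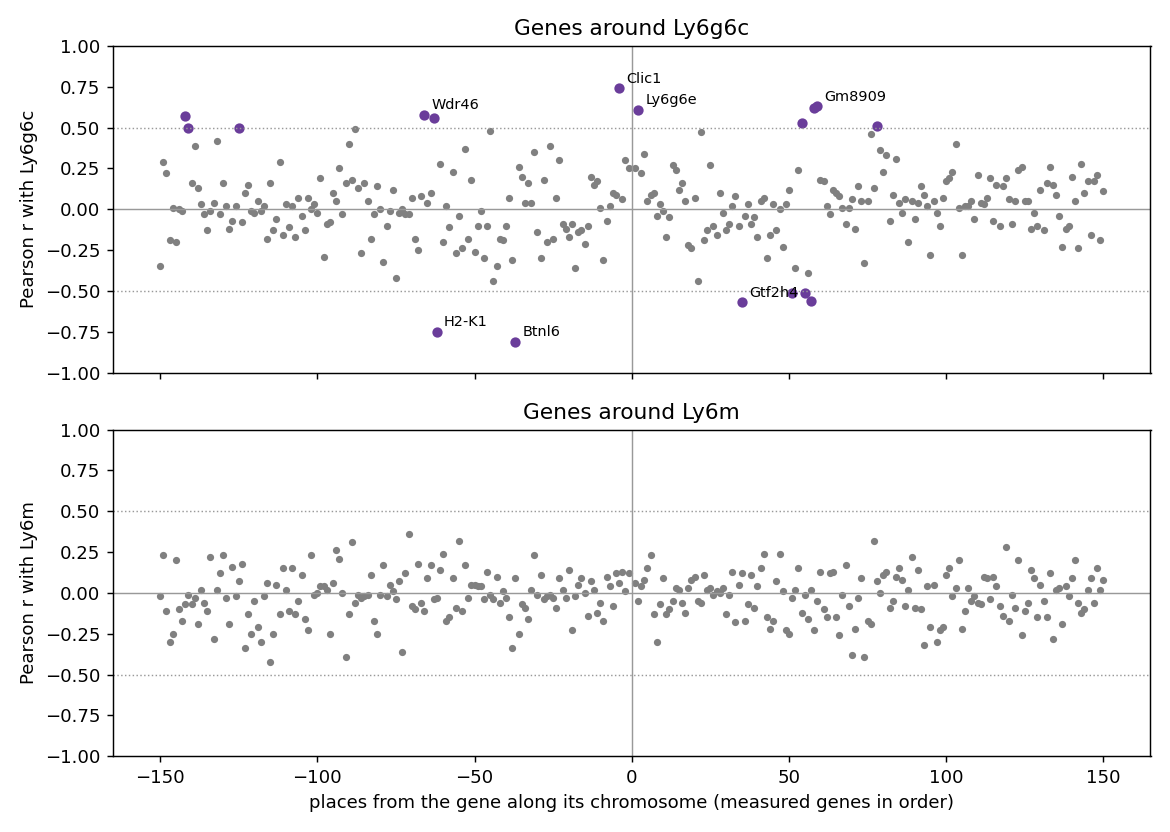
Pearson r (vertical axis, 64 arrays centred within diet) of each gene with Ly6g6c (top) and Ly6m (bottom), by its place in gene order from the member (horizontal axis, measured genes on either side). Large purple points have r of at least 0.5 in size: there were 17 of 300 around Ly6g6c and 0 of 300 around Ly6m. Over all genes these shares were 0.0923% for Ly6g6c and 0.118% for Ly6m.

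Of the genes with r of at least 0.5 in size with Ly6m, 0 of 23 lay on its own chromosome 15, which holds 3.66% of the genes. Of the 300 genes within 150 places, 0 reached that size, against 0.118% of all genes. With shares this small, counts of 0 do not set Ly6m apart. Its 5 most alike genes were Gprc5a, an orphan receptor induced by retinoic acid (r = 0.717), Plek2 (0.621), the membrane protein gene Pmp22 (0.601), the small GTPase gene Rhoc (0.596) and Clca4a (0.58). They lie on chromosomes 6, 12, 11, 3 and 3. Gprc5a had r = 0.723 in HFD and 0.713 in CD, and 0.601 without the pairs in doubt. Without those pairs r was 0.44 for Plek2, 0.452 for Pmp22, 0.536 for Rhoc and 0.471 for Clca4a.

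Ly6c1 was most like Ly6c2 (r = 0.884, with 0.907 in HFD and 0.869 in CD), its close paralog and neighbour. Probes of near-identical paralogs can take up each other's RNA, so these 2 levels are not certain to be separate. Next came Edem2, which acts in the disposal of misfolded proteins (0.699), Myadm (0.691), Shisa5 (0.673) and Pou2af1, a coactivator of B cells (0.673). Ly6d had its highest r with Cd79a, a subunit of the B cell receptor (0.522), followed by Prkcb (0.512), Bank1 (0.506), the leukocyte tetraspanin gene Cd37 (0.491) and Lrmp (0.489). Prkcb and Bank1, too, encode signalling proteins of B cells. Without the pairs in doubt all 5 were below 0.5 with Ly6d, from 0.376 (Cd37) to 0.491 (Prkcb), with 0.438 for Cd79a. In Ly6e the highest were Myadm (0.802), Snrpa of the U1 splicing particle (0.781), Praf2 (0.773), Lpp (0.761) and the NF-kappaB subunit gene Rela (0.759), and 610 genes (3.13%) had r of at least 0.5 in size with it. That count was 231 for Ly6c1 and 4 for Ly6d.

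Ly6g6c and Ly6m also varied more between strains than most genes. In CD only 0.108% of genes had a larger SD than Ly6g6c (2.19) and 0.436% a larger one than Ly6m (1.33), with a median of 0.39 over all genes. In HFD these shares were 0.467% for Ly6g6c and 0.585% for Ly6m. The SDs of Ly6e (0.86 in both diets) were exceeded by 1.88% of genes in either diet.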

How the data were processed

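Colon RNA of 64 pools (32 strains on HFD and CD, about 5 mice each per the labels) had been hybridised to Affymetrix Clariom S arrays, and the authors deposited log2 intensities of 22199 probesets, summarised with Affymetrix Power Tools by its gc-sst-rma-sketch method (RMA after a correction for GC content), with no missing values. The methods say that probes over sequence variants were ignored, and whether this applies to the deposited values is not stated. The values hold no counting depth, so the number of arrays limits the precision. Of the probesets 19570 carried 1 gene symbol and 2629 none, and 19503 genes remained after the median over probesets was taken for 55 genes with several. R 4.3.3 and limma 3.58.1 were used to fit HFD minus CD over all genes (lmFit and eBayes, Benjamini-Hochberg). Correlations over strains used 100000 two-sided permutations. Both were tested on simulated data. Strain labels were checked on genes in 2 sets, a check added after seeing the data. Same-strain arrays on the 2 diets are different animals of 1 inbred strain. Their deviations from the diet means had r over 0.1 in 22 of 32 pairs (median 0.206, against -0.009 between strains), so the blocked value stands beside the main one. The members and lists were chosen with earlier results of these data known. Named genes were the members, the 5 genes with the highest r with each, and the family genes that passed, had the 5 largest differences or had r of at least 0.5 in size with a member. Marker genes were named where a result turned on them, and a stem cell, a goblet cell, a fibroblast, a T cell and a small intestine list were used as well. Alternatives were another scaling, filter or probeset rule, the block, and leaving out strains or arrays that stood apart.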

Additional observations from a re-analysis of the deposited data

How the results depend on the processing

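The diet differences of the 5 members kept their sign under every alternative tried, with ranges of -1.46 to -0.98 for Ly6m, -1.55 to -1.19 for Ly6g6c, -0.29 to -0.15 for Ly6c1, 0.07 to 0.23 for Ly6d and -0.23 to -0.12 for Ly6e. With strain as a replicate block, which leaves the mean differences as they were, 271 genes rose and 416 fell, against 145 and 281 without it, and without the pairs in doubt 330 rose and 527 fell. The correlation of Ly6m between diets was 0.47 without the pairs in doubt and 0.13 without BXD89, against -0.19 over all strains, the second chosen after seeing the data, as was the split of strains at the gap in Ly6g6c. That of Ly6d was -0.06 both over the 30 BXD strains and without its 2 farthest strains. That of Ly6c1 passed after quantile normalisation (0.39) and without BXD39, BXD48a, BXD49 and BXD69, the strains with an array rich in Defa24 (0.46). That of Ly6e passed in the same settings (0.42 and 0.41) and without its 2 farthest strains (0.60). Neither passed without the pairs in doubt (0.21 for Ly6c1 and 0.30 for Ly6e) or over the 30 BXD strains (0.21 and 0.32). The relation of Ly6c1 with Ly6e in HFD did not pass without the pairs in doubt (0.47). Over the 30 BXD strains 1 relation with a marker list passed, against 6 over all strains, with fewer strains tested. Other causes were not tested. With 1 array per strain and diet, error between animals could not be measured.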
